A study of Coturnix japonica with 42 samples.

Results

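The genes described here are ALB (serum albumin), TTR (transthyretin), LBFABP (a fatty acid binding protein of the liver, an entry separate from FABP1), AvBD9 (avian beta-defensin 9) and LOC427439, a locus that the platform annotation names only by its number. They were chosen by measured values of these same arrays, namely a signal in the mediobasal hypothalamus of quail that was high on the short day and lower on the long days. All probe sets whose platform symbol was one of the 5 names were taken, which gave 8 probe sets for 5 of the 13009 genes that the platform names with 1 symbol. TTR had 2 probe sets, LOC427439 had 3 and the others had 1 each. All 8 passed the filter on dim probe sets (on 2 arrays or more, a signal over the array's own median), as did 32057 probe sets of 12311 named genes in all. The brightest probe set over all arrays stands for a gene below, and the other 3 are described beside it.

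The tissue was the mediobasal hypothalamus of male Japanese quail, 8 weeks old, of a strain the labels do not give. The birds had lived for 4 weeks on 6 h of light and 18 h of dark, and were then put on 20 h of light and 4 h of dark. Sampling covered the last short day and both long days at 21 times, with 6 birds per time, RNA pooled from 3 birds per array and 2 arrays per time, and n is therefore a number of pools. The groups were the first long day (times 26 to 46 h, 18 arrays), the second long day (50 to 70 h, 12 arrays) and the short day (2 to 22 h, 12 arrays). Times were taken to count from the moment the short day began, which the labels do not state, and hours are also given within each 24 h day. The first long day was also sampled at 36, 40 and 44 h, which have no short-day partner.

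Albumin is the main protein of blood plasma and is made in the liver, and in the blood it carries fatty acids and hormones. Transthyretin carries thyroid hormone and, together with retinol binding protein, retinol. In birds and mammals it is made in the liver and in the choroid plexus of the brain. Fatty acid binding proteins of the liver hold fatty acids and bile acids inside liver cells, and avian beta-defensins are small cationic antimicrobial peptides of leukocytes and epithelia. No role is given here for LOC427439.

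Values named signal are array intensities on a linear scale after every array was brought to the same trimmed mean, and levels of different probe sets cannot be set against each other. Signals under a floor of 3.509 were raised to it before log2 was taken for the differences, while the signals printed are unfloored. The trimmed mean of the arrays before scaling had a median of 33.5 on the first long day, 28.1 on the second and 34.2 on the short day. The median correlation of an array with the others was at most 0.916 and at least 0.83, and the lowest belonged to replicate 2 at 62 h, which stands apart from the next lowest at 0.891. The neuronal gene SNAP25, a check of the labelled brain tissue, had a mean signal of 5980 on the first long day (all 18 arrays), 6690 on the second and 6140 on the short day. The probes were designed for chicken, and a dim probe set may differ from the quail sequence. In whole tissue, fewer cells of a type and less RNA per cell cannot be told apart. A difference below is the long-day mean minus the short-day mean on the log2 scale with its standard error (SE) from 1 model over all 42 arrays. Because the long-against-short differences chose the genes, they are given as descriptions with no test.

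ALB had the largest difference of the 5 genes on both long days with the floor used here. With no floor LBFABP had a larger one on the first, at -3.46 against -3.06 for ALB. Its signal ran from 3.6 to 18.3 on the first long day with a median of 11.2, from 1.85 to 20.5 on the second with a median of 11.9, and from 20.3 to 479 on the short day with a median of 72.4. The short-day arrays read 43.1 and 73.6 at 2 h, 23.2 and 38.7 at 6 h, 20.3 and 27.3 at 10 h, 73.3 and 71.4 at 14 h, 162 and 85.1 at 18 h, and 479 and 164 at 22 h. Both 22 h arrays were thus above all other arrays, and both 10 h arrays were close to the top of the long-day range. At the next time, 26 h, the arrays read 9.25 and 11.9, which is 26.6-fold under the 22 h mean on the log2 scale. Over hours 10 to 22 the difference between the first long day and the short day was -3.06 (SE 0.322, 8 arrays each), or 8.31-fold lower. Over all 6 hours that between the second long day and the short day was -2.65 (SE 0.263, 12 arrays each), or 6.28-fold lower. Hours 2 and 6 of the first long day came before any added light on the reading of the times used here. ALB was lower there too, at 7.6 to 11.9 against 23.2 to 73.6 on the short day (-2.19, SE 0.456, 4 arrays each).

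No array of the first long day at hours 10 to 22 reached the lowest short-day array of those hours for ALB and for TTR. Of all tested probe sets, 11 (0.0343%) were lower with such a gap in that comparison, and 0.0187% passed the test as lower and 0.0374% as higher. On the second long day 11 of the 12 short-day ALB arrays were above its highest array, the exception being 20.3 at 10 h against 20.5 at 70 h. A full gap to the lower side was found for 12 probe sets (0.0374%) in that comparison, of which LOC427439 was one. There 0.97% of the tested probe sets (311) passed the test as lower and 0.396% (127) as higher, so that 71% of the calls were lower, a share that was 94.5% with arrays centred on their medians and 98.6% with the values as deposited. For the first long day at hours 2 and 6, where 4 arrays face 4 and a gap is easier to reach, 1.51% of the probe sets were lower without overlap, ALB and LOC427439 among them. These comparisons chose the genes, so the shares are given as background and nothing is read from them.

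TTR, the thyroid hormone carrier, also had its higher values on the short day, with partner arrays far apart at 6 h and at 22 h. Its signal was 10.1 to 41.1 on the first long day (median 20), 16.6 to 41.5 on the second (median 26.1) and 15 to 266 on the short day (median 47.6). The short-day arrays read 22.9 and 36.1 at 2 h, 15 and 67.2 at 6 h, 47 and 41.9 at 10 h, 29.4 and 48.2 at 14 h, 96.4 and 50.1 at 18 h, and 266 and 65.4 at 22 h. The highest value is a single pool, 4.07 times its partner, and at 6 h replicate 2 was 4.47 times replicate 1. The difference over hours 10 to 22 was -1.87 (SE 0.278) on the first long day, or 3.66-fold lower, and -0.90 (SE 0.227) over all 6 hours on the second, or 1.87-fold lower. At hours 2 and 6 the first long day and the short day overlapped, at 16.6 to 27.1 against 15 to 67.2 (-0.50). That difference was -1.05 without replicate 1 at 6 h and 0.04 without replicate 2 at 6 h.

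The other TTR probe set was dim on all days and did not show this order. Its signal was 0.853 to 14.7 on the first long day, 0.357 to 18.9 on the second and 0.862 to 12.1 on the short day, and 10 of the 42 arrays were under the floor. Its differences were -0.41 (SE 0.396) on the first long day and 0.02 (SE 0.323) on the second, with 95% intervals of -1.22 to 0.39 and -0.63 to 0.68. The TTR values above therefore rest on 1 probe set.

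LBFABP was near or under the floor on most arrays, and on most long-day arrays its level is known only as low. Its signal was 0.281 to 8.63 on the first long day, 0.529 to 14.8 on the second and 0.4 to 55.7 on the short day, with 12 of 18, 6 of 12 and 3 of 12 arrays under the floor. The short-day arrays read 3.59 and 0.859 at 2 h, 0.4 and 6.76 at 6 h, 15.9 and 10 at 10 h, 9.26 and 16.1 at 14 h, 26.2 and 1.29 at 18 h, and 55.7 and 22.5 at 22 h. Values above 20 were thus seen on 3 arrays, replicate 1 at 18 h and both at 22 h. The difference was -2.05 (SE 0.351) on the first long day over hours 10 to 22, where 7 of the 8 long-day arrays were at the floor, and -0.91 (SE 0.286) on the second. The size of the first depends on the floor, being -3.02 with the floor at the 10th percentile. At hours 2 and 6 the means of the first long day and the short day were equal at the floor's resolution (0.00). The second long day differed from the short day by 0.47, 0.08 and 0.01 at hours 2, 6 and 10. At hours 14, 18 and 22 it differed by -1.77, -1.45 and -2.79. Both arrays at 58 h, the same hour of day as 10 h, were above the floor at 10.8 and 14.8.

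AvBD9, the antimicrobial peptide, had the closest partner arrays at its peak. On the short day it read 12.1 and 29.9 at 2 h, 21.1 and 21 at 6 h, 13.6 and 15.3 at 10 h, 37.4 and 25.7 at 14 h, 49.7 and 57.2 at 18 h, and 75.3 and 74.6 at 22 h. The range was 3.62 to 26.3 on the first long day (median 14.8), 2.5 to 18.7 on the second (median 11.8) and 12.1 to 75.3 on the short day (median 27.8). The 4 arrays at 18 and 22 h of the short day were thus the highest of all, and the short-day arrays at 2, 6 and 10 h lay within or near the long-day range. The difference was -2.06 (SE 0.354) on the first long day over hours 10 to 22, or 4.17-fold lower, and -1.61 (SE 0.289) on the second, or 3.06-fold lower. At hours 2 and 6 it was -0.02. The name of its probe set ends in the platform's mark for probes that can match transcripts of more than one gene, so signal of a related transcript cannot be told apart from that of AvBD9.

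LOC427439 was bright and had the smallest spread. Its signal was 184 to 283 on the first long day (median 223), 144 to 211 on the second (median 187) and 247 to 514 on the short day (median 309). Its short-day arrays were highest at 2 h, at 514 and 429, with 349 and 314 at 6 h, 353 and 376 at 10 h, 303 and 280 at 14 h, 247 and 284 at 18 h, and 287 and 300 at 22 h. Its high end was therefore at the start of the short day, whereas the other 4 genes had theirs at 22 h. The difference was -0.78 (SE 0.114) on the first long day at hours 2 and 6, -0.47 (SE 0.0803) over its hours 10 to 22 and -0.84 (SE 0.0655) on the second long day, or 1.71-, 1.38- and 1.79-fold lower. The highest second long-day array, 211, was under the lowest short-day one, 247. The second long day was also lower than the first at all 6 hours (-0.27, SE 0.0655), whereas that difference was 0.12 for ALB, 0.51 for TTR, 0.46 for LBFABP and -0.23 for AvBD9.

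The other LOC427439 probe sets differed less between days. The first read 58.1 to 117 on the first long day, 53.6 to 95.5 on the second and 65.7 to 104 on the short day, with differences of 0.00 (SE 0.138) and -0.17 (SE 0.112). The other read 18.2 to 63.7 on the first long day, 13.8 to 41.9 on the second and 25.7 to 56.9 on the short day, with differences of -0.39 (SE 0.222) and -0.43 (SE 0.181), with 95% intervals of -0.84 to 0.06 and -0.80 to -0.06. Of the 3 probe sets only the brightest showed a gap between the second long day and the short day.

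**Figure D1:**
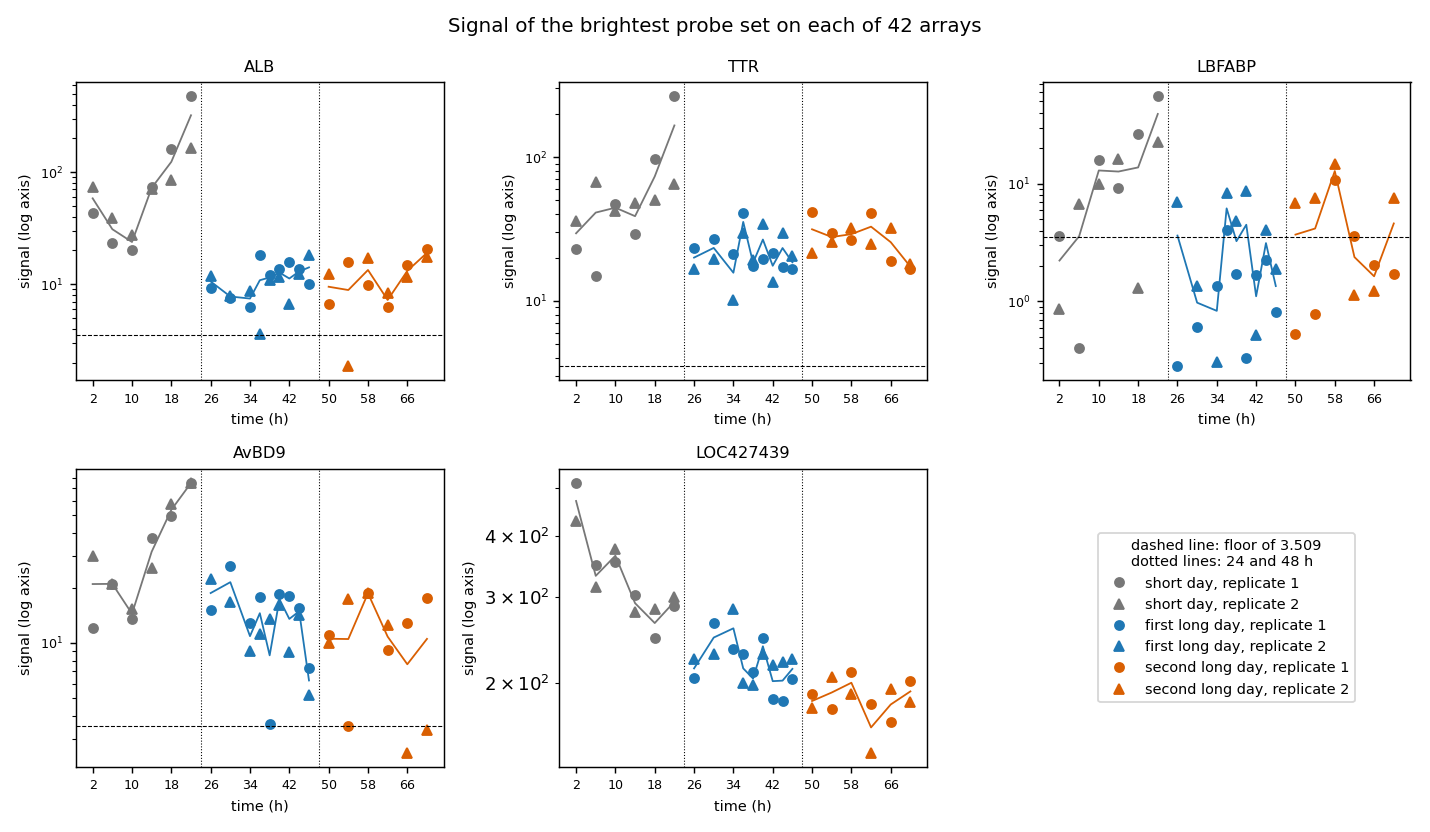
Signal of the 5 genes on each of the 42 arrays (log scale) against time in hours, 1 panel per gene. Circles are replicate 1, triangles replicate 2, lines join the means of each day, the dashed line is the floor of 3.509, and grey, blue and orange are the short, first long and second long day. ALB and AvBD9 are highest at 22 h on both arrays, TTR and LBFABP on replicate 1 at 22 h, and LOC427439 at 2 h.

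**Figure D2:**
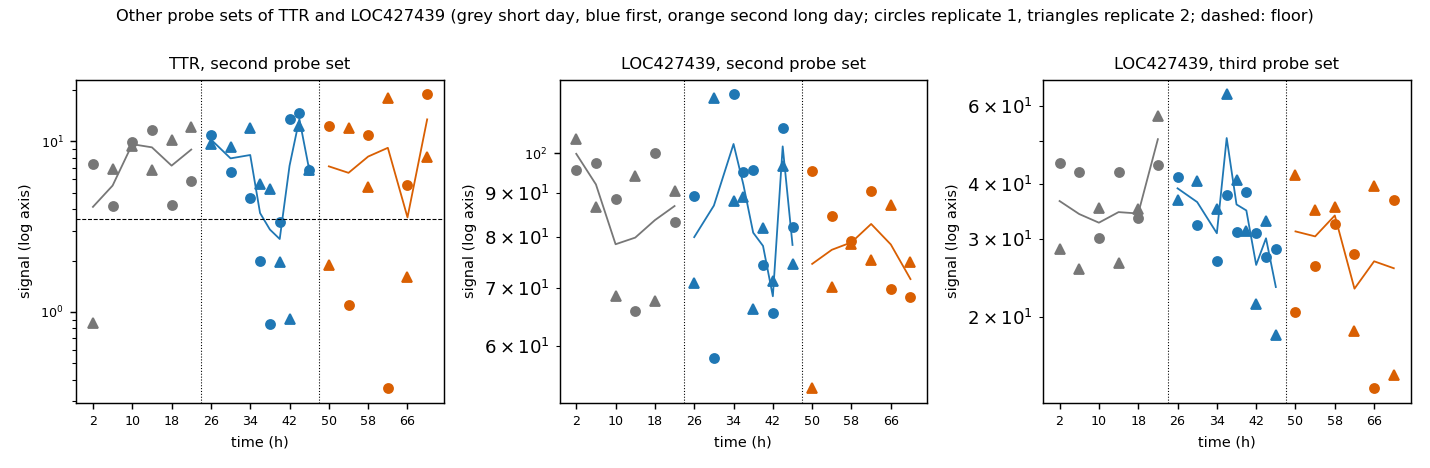
Signal of the 3 further probe sets of TTR and LOC427439 on each array (log scale) against time in hours, with the same colours and symbols. The TTR probe set lies between 0.357 and 18.9 on all days, and those of LOC427439 overlap between the days.

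Matched by hour of day, ALB and LOC427439 had both long-day arrays under both short-day arrays at 6 of 6 hours on the first long day and again on the second. TTR did so at 4 and 3 hours, LBFABP at 3 and 2, and AvBD9 at 4 and 5. Over all tested probe sets, 10 (0.0312%) did so at 6 of 6 hours on the first long day and 61 (0.19%) on the second. With 2 pools on each side, the count of hours is a description.

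Single arrays were then set against the whole short-day level. Replicate 1 at 22 h was the highest short-day array for 4 of the 5 genes and held 38% of the summed short-day signal of ALB, 33.9% of that of TTR, 33% of that of LBFABP and 17.4% of that of AvBD9. For LOC427439 the highest array, replicate 1 at 2 h, held 12.7%. Without its own highest array, the ratio of the short-day mean to the mean over the 30 long-day arrays was 6.25 in place of 9.25 for ALB, 1.95 in place of 2.71 for TTR, 2.5 in place of 2.77 for AvBD9 and 1.54 in place of 1.62 for LOC427439. The ratio of medians, which no single array sets, was 6.27 for ALB, 2.22 for TTR, 2.11 for AvBD9 and 1.51 for LOC427439. No ratio is given for LBFABP, since 18 of the 30 long-day arrays were under the floor.

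The number of arrays that carry the short-day level also differed between the genes. For ALB 11 of the 12 short-day arrays were above the highest of the 30 long-day arrays, and for LOC427439 10 of 12 were. The count was 8 for TTR, 6 for AvBD9 and 5 for LBFABP.

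In the fitted differences, replicate 1 at 22 h counted for less. Without it the first long day differed from the short day by -2.86 for ALB, -1.62 for TTR, -1.89 for LBFABP, -2.06 for AvBD9 and -0.47 for LOC427439. With hour 22 left out of every day, a choice made after the values were seen, these were -2.62, -1.55, -1.62, -1.54 and -0.47 in the same order. On the second long day the same step gave -2.40 for ALB, -0.50 for TTR, -0.53 for LBFABP, -1.29 for AvBD9 and -0.88 for LOC427439. Of the second long-day differences, those of TTR and LBFABP moved most with that step. For LBFABP, AvBD9 and LOC427439 other arrays moved the first long-day difference more than replicate 1 at 22 h. It was -1.69 for LBFABP without replicate 1 at 18 h and -2.41 without replicate 2 at 18 h. For AvBD9 it was -1.82 without replicate 1 at 38 h and -2.3 without replicate 2 at 38 h. For LOC427439 it was -0.43 without replicate 1 at 34 h and -0.5 without replicate 2 at 34 h. Without replicate 2 at 22 h it was -3.25 for ALB and -2.13 for TTR. Adding 16 to the signal in place of the floor, which shrinks the differences of dim probe sets, gave first long-day differences of -2.02 for ALB, -1.28 for TTR, -0.90 for LBFABP and -1.11 for AvBD9.

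**Figure D3:**
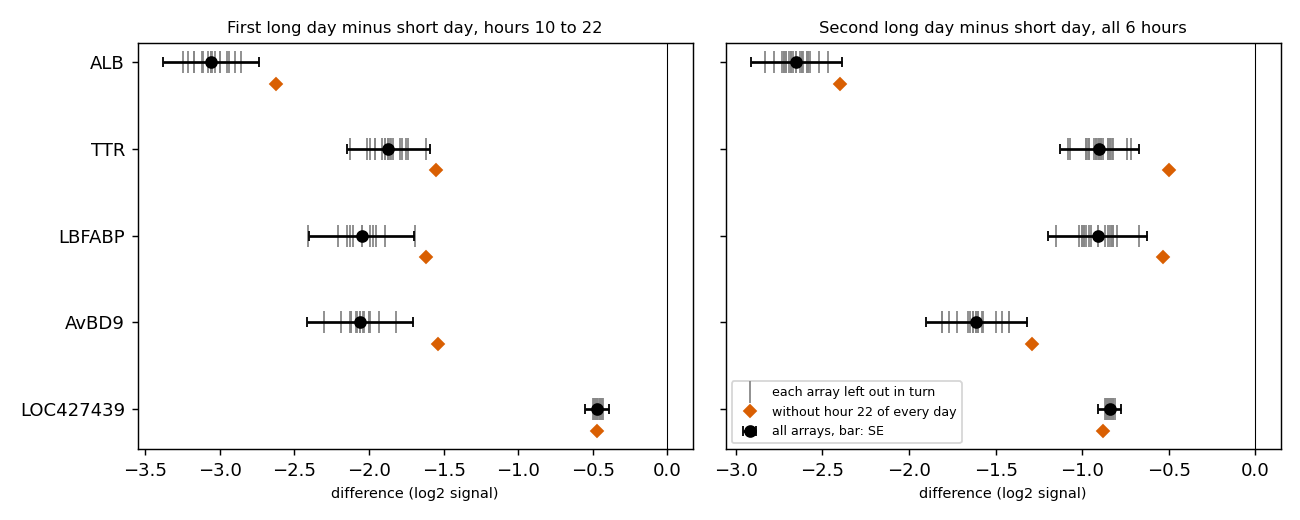
Difference of the long days from the short day (log2) for each gene, in the left panel for the first and in the right panel for the second long day. Black points are the values with all arrays and bars 1 SE, grey ticks leave out 1 array each, and orange diamonds leave out hour 22 of every day. All values shown are below 0, and those of LOC427439 lie closest together.

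Whether the genes varied within a day was tested by a joint test in the same model (limma, Benjamini-Hochberg over all 32057 probe sets, two-sided). Its contrasts were not themselves used to choose the genes. They come from the same arrays, however, and are not independent of that choice. For the short day the test covered hour 6 against 2 and hours 14, 18 and 22 against 10 in 4 contrasts. It left out the difference of hours 2 and 6 from the later hours. On the short day 9 probe sets (0.0281%) passed an adjusted p of 0.05, and none of the 5 genes was among them. ALB came closest, with an adjusted p of 0.113 (unadjusted 6.32e-05), against 0.886 for LOC427439 and 1 for TTR, LBFABP and AvBD9. ALB did pass with 16 added to the signal in place of the floor (adjusted p = 3.53e-05, limma), and also without replicate 2 at 36 h (0.0417), replicate 1 at 54 h (0.0481) or replicate 2 at 54 h (0.0445), while without replicate 1 at 22 h it was 0.703. The unadjusted p was 0.0226 for AvBD9, 0.0243 for TTR, 0.0848 for LBFABP and 0.00388 for LOC427439. From 10 h to 22 h of the short day the mean was 11.9 times as high for ALB, 5.21 for AvBD9, 2.97 for TTR and 2.8 for LBFABP on the log2 scale, and LOC427439 was lower at 22 h by -0.32. The step from hours 2 and 6 to 22 h was not tested as such.

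On the first long day, times 34 to 46 h, 0.0468% of the probe sets passed the same test and the 5 genes had an adjusted p of 1. On the second long day 0.0499% passed, and the adjusted p of the 5 genes ran from 0.641 for LBFABP to 0.89 for TTR. On the second long day ALB read 6.69 and 12.3 at 50 h, 15.9 and 1.85 at 54 h, 9.78 and 17 at 58 h, 6.2 and 8.27 at 62 h, 14.8 and 11.5 at 66 h, and 20.5 and 17.6 at 70 h. Both arrays of its last hour, the same hour of day as 22 h, were thus above the other arrays of that day, and both were under the lower 22 h array of the short day by a wide margin (164).

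A further measure was the deviation between partner arrays, taken as replicate 1 minus replicate 2 in log2 signal at each of the 21 times. It was not itself used to choose the genes, but it comes from the same arrays and is not independent of that choice. Of the 10 pairs of genes, 0 passed an adjusted p of 0.05 in permutation tests with 100000 resamples, and 1 had an unadjusted p under 0.05. That pair was TTR and LBFABP, with Pearson's r of 0.45 (permutation p = 0.047, adjusted 0.47, n = 21) and Spearman's rho of 0.35 (permutation p = 0.12, adjusted 0.75). At 5 of these times (30, 34, 42, 46 and 66 h) both LBFABP arrays were at the floor and the deviation was set to 0, so fewer than 21 times carry a value for pairs with LBFABP. Without the times 6 and 22 h, the farthest from the median, r was 0.30. ALB and TTR had r of 0.35 (permutation p = 0.12, adjusted 0.54), and ALB and LBFABP 0.10 (adjusted 0.91). The pools at 22 h and 18 h had TTR, LBFABP and ALB higher in replicate 1 than in replicate 2.

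**Figure D4:**
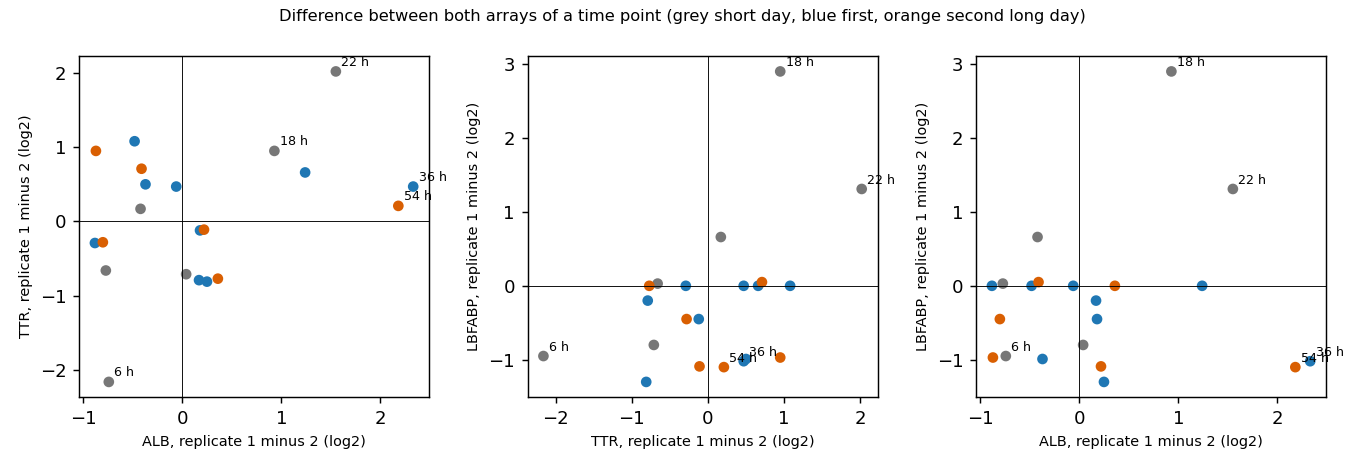
Replicate 1 minus replicate 2 in log2 signal of one gene against that of another for the pairs of ALB, TTR and LBFABP, with a point for each of the 21 times, coloured by day. The points at 18 and 22 h lie at the upper right in all panels, and r is 0.35 for ALB and TTR, 0.45 for TTR and LBFABP and 0.10 for ALB and LBFABP.

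Since several of the genes are liver products, the other markers of the liver were read on the same arrays. Of 36 listed genes for plasma proteins of the liver, 32 were on the array and 26 were tested. On the first long day 0 of the 26 passed the test, and their median difference was -0.14, with 20 below 0, against a median of 0.005 and 49.2% below 0 over all tested probe sets. The 3 with the smallest p were FGG, a fibrinogen chain (-1.17, adjusted p = 0.692, limma), APOH (0.24, adjusted p = 0.822) and RBP4 (1.10, adjusted p = 0.822). On the second long day TF, transferrin, was higher (0.31, adjusted p = 0.00706), 0 were lower, and the median was 0.11 against 0.042 over all probe sets. The summed signal of the 26 was 7598 to 11230 on the first long day, 9681 to 13670 on the second and 8568 to 11770 on the short day, and the groups overlapped. APOA1 and TF, with short-day medians of 4350 and 4160, made up most of that sum, so it says little about the dim genes. AHSG, FGA, FGB and TAT, which mark liver cells, were at the floor on 24 to 29 of the 42 arrays.

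On the array that was highest for ALB, TTR and LBFABP, some of these liver genes were high and others low. Replicate 1 at 22 h was the highest of the 42 arrays for 5 of the 26 genes, APOA4, CP, FGB, FGG and GC, and among the top 3 arrays for 10 of them. Over all tested probe sets that array was the highest for 2.31% and in the top 3 for 7.33%. Its partner was the highest for 0 of the 26 and in the top 3 for 3. Other genes of the list were low on replicate 1, which ranked 42 of 42 for APOH, 40 for RBP4, 37 for ARG2 and 36 for A2M. APOH was bright even there, at 784 against a short-day median of 934. RBP4 read 1.65 there, under the floor, so its rank carries little weight, and it is an entry separate from RBP4A below. For the summed signal of the 26 replicate 1 ranked 25, at 10170 against 10500 on its partner. APOA1 and TF gave 4130 and 4310 of that 10170. FGG read 92.4 and 19.5 at 22 h and 28.6 and 10.9 at 18 h. On the 41 arrays other than replicate 1 at 22 h its median was 13.8 and its highest value 29.7. The rest of the 5 were closer to their highest value on another array. APOA4 read 30.3 on replicate 1 against 25.6, CP 55.9 against 44.4, FGB 18.5 against 16.5 and GC 54.6 against 42.5. The next 3 liver-type transcripts were chosen after their values were seen. FABP1 read 45.4 and 25 at 22 h against a median of 6.66 and a highest value of 27.2 on the other 40 arrays. RBP4A read 42.9 and 9.96 against a median of 3.09 and a highest value of 19.6. AKR1D1, a steroid reductase of bile acid synthesis, read 33.9 and 17 against 5.97 and 22.8. For each of them only replicate 1 was thus above all other arrays. RBP4A and AKR1D1 are also among the 4 genes most correlated with TTR, which was itself highest on replicate 1. The mean log2 signal of the 26 was 4.26 to 4.75 on the first long day, 4.50 to 5.02 on the second and 4.40 to 5.10 on the short day, and its top, 5.10, was that array. Whether RNA of another tissue in that pool took part in the levels of ALB, TTR and LBFABP was not tested, and the values without the array are those given above. AvBD9 was as high on the partner array (74.6) as on that one (75.3).

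**Figure D5:**
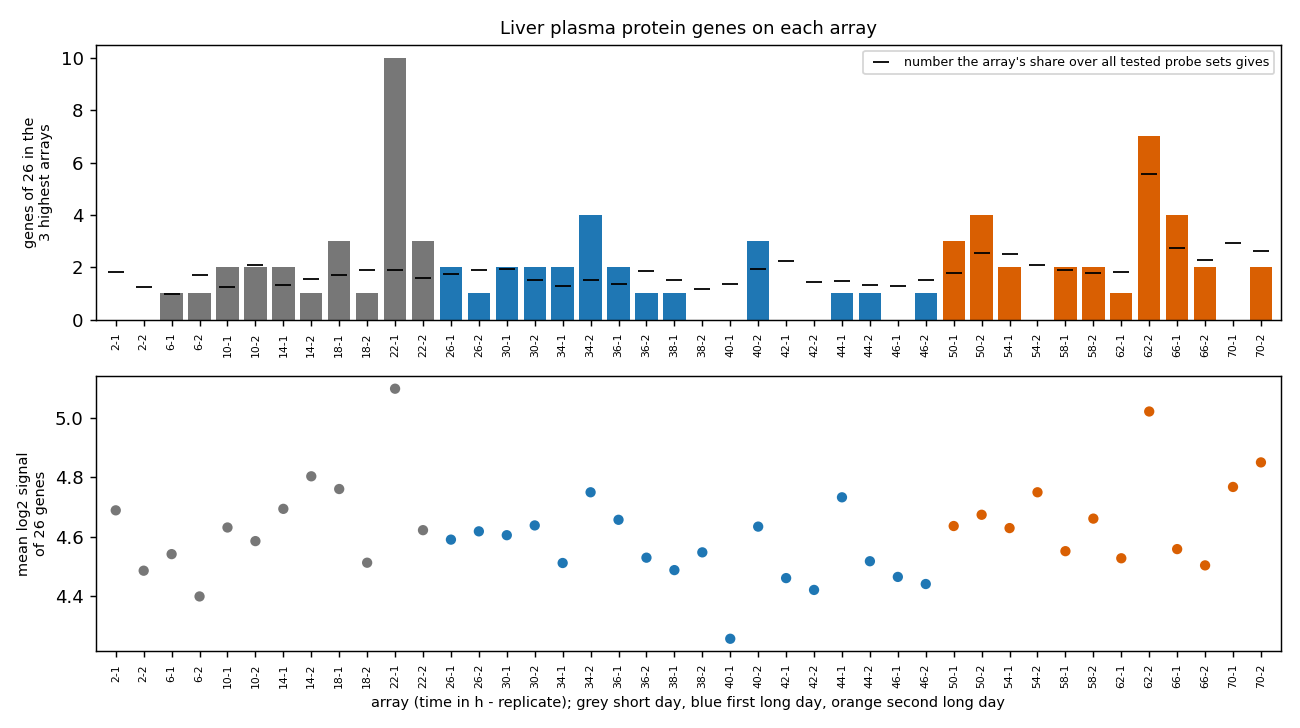
The 42 arrays in order of time, coloured by day. The upper panel counts, per array, the liver plasma protein genes of 26 for which it is among the 3 highest arrays, with a dash at the number its share over all tested probe sets gives, and the lower panel gives their mean log2 signal. Replicate 1 at 22 h has the most genes, 10, and the highest mean, 5.10, while its partner has 3 and 4.62. Replicate 2 at 62 h has 7, with 21.4% over all probe sets.

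The choroid plexus, the other source of transthyretin, was followed with 18 listed genes, of which 16 were on the array and 15 tested. On the first long day 0 of the 15 passed the test and their median was 0.07, with 4 below 0, and on the second ENPP2 was higher (0.28, adjusted p = 0.0487, limma) and the median was 0.11. Their summed signal was 1425 to 2155 on the first long day, 1582 to 2308 on the second and 1518 to 1971 on the short day. ENPP2 and IGFBP2, with short-day medians of 688 and 662, made up most of that sum, so it says little about the dim genes. CDH1 and SLC4A5 were at the floor on 27 and 25 arrays. The part of the choroid plexus in the TTR values was not tested.

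Some erythrocyte genes were also high on replicate 1 at 22 h and others were not. Their summed signal was 7968 there, the second highest of the 42 arrays, against 4806 on its partner, which ranked 37. HBA1, a hemoglobin chain and most of that sum, read 6590 against 3900. Replicate 1 ranked 2 to 4 for HBA1, HBE, HBAD and SLC4A1. It ranked 17 for EPB42, 18 for HBZ, 22 for SPTB, 35 for CA2 and 42 for RHAG. Over the days the erythrocyte sum was 4528 to 8021 on the first long day, 4408 to 7256 on the second and 4610 to 7968 on the short day, so the groups overlapped. The part of blood in the levels of the 5 genes on that array was not tested. The sums of the other cell type lists on that array ranked between 7 for surface epithelium and 40 for the anterior pituitary.

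Calls among these lists are set against the 18 probe sets of 32057 (0.0187% lower and 0.0374% higher) on the first long day and the 0.97% lower and 0.396% higher on the second, at which lists of this size would hold no call or few, so a count of 0 says nothing about a list. On the first long day 0 genes passed among 9 of erythrocytes (median -0.04), 14 of fibroblasts and meninges (0.05), 10 of leukocytes (0.15), 12 of endothelium (0.09), 10 of surface epithelium (-0.01) and 13 of neurons (-0.07). On the second long day 2 fibroblast genes were lower, FMOD (-1.11, adjusted p = 0.0288) and DCN (-0.29, adjusted p = 0.0414), and 1 neuronal gene, SYT1, was higher (0.27, adjusted p = 0.0488). Among 11 genes of the anterior pituitary 2 were higher on both long days, TSHB (2.83 and 2.12) and CGA (1.24 and 1.09), the subunits of thyrotropin, all with an adjusted p of 2.27e-07 or less. The summed signal of the 11 was 1192 to 2143 on the first long day, 1198 to 2428 on the second and 770.6 to 1749 on the short day. CGA, with a short-day median of 584, was the largest part of it. Among 11 genes of tanycytes and ependyma, the cells that line the ventricle, DIO3 was lower and DIO2 higher on both long days and VIM higher on the second (0.84). The summed signal of the 11 tanycyte and ependymal genes was 2082 to 4507 on the first long day, 2591 to 6273 on the second and 2114 to 2996 on the short day. VIM, with a short-day median of 1750, made up most of it.

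The relatives of the genes were read in the same way. Of 26 listed symbols for avian beta-defensins (AvBD, GAL and DEFB names, not all separate genes) 12 were on the array and 10 tested. On either long day 0 passed (medians -0.04 and -0.07), which at the shares over all probe sets given above says nothing about the family. AvBD12 was at -0.87 on the first long day (adjusted p = 0.848, limma) and AvBD7 at 0.33 (adjusted p = 0.963). AvBD10 was at -0.40 on that day (adjusted p = 0.965) and was at the floor on 27 arrays. The second long day gave 0.05 for AvBD12, -0.12 for AvBD7 and -0.38 for AvBD10. Below 0 were 5 of the 10 tested on the first long day and 6 on the second. Of 15 listed intracellular lipid-binding proteins 9 were tested and 0 passed on either day (medians -0.06 and -0.03), with FABP1 at -0.55 on both. Of 33 listed genes for the carriage and conversion of retinoids and thyroid hormone 23 were tested. There DIO3, which inactivates thyroid hormone, was lower on both long days (-1.77 and -4.93), DIO2, which activates it, was higher (1.04 and 1.60), and RDH10, a retinol dehydrogenase, was lower on the second (-0.51, adjusted p = 0.00115). The medians of that list were 0.15 and 0.22.

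Across the 42 arrays the genes correlated with each other in log2 signal at r of 0.69 for ALB and TTR, 0.72 for TTR and LBFABP, 0.63 for ALB and AvBD9 and 0.28 for TTR and LOC427439. Over the 30 long-day arrays alone r was -0.14, 0.23, -0.15 and -0.24 for the same pairs. These points share the days that chose the genes, and the values are a description. The 4 genes most like each in log2 signal over the 42 arrays, among 12306 others, were LPIN2 (r of 0.58), BZW2 (0.57), CARS2 (0.54) and SYNGR1 (0.54) for ALB. For TTR they were CEP97 (0.54), ZDHHC15 (0.54), RBP4A (0.52) and AKR1D1 (0.51). For LBFABP they were ITPA (0.56), UBQLN4 (0.55), DDX55 (0.53) and SPINT1 (0.51), and for AvBD9 PRKX (0.60), BAZ2B (0.60), CPSF6 (0.58) and SYNGR1 (0.57). LOC427439 had closer ones, KLF6, a zinc finger transcription factor, at 0.84, ARL3 at 0.82, GNAS, a G protein alpha subunit, at 0.80 and EFNA5 at 0.79.

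Signs of RNA quality on the 22 h arrays were as follows. The ratio of 3' to 5' signal for actin was 7.68 and 8.98 at 22 h, against a range of 6.31 to 9.04 over the short day, with medians of 7.72 on the first long day, 7.88 on the second and 7.65 on the short day. For GAPDH it was 1.14 and 1.19 at 22 h, with a median of 1.19 on each day. The higher actin ratio belonged to replicate 2, and the higher ALB, TTR and LBFABP to replicate 1. Whether RNA quality took part in these levels was not tested. The correlation between partner arrays was 0.904 at 22 h and 0.902 at 18 h, within the 0.83 to 0.917 of all times. Leaving out replicate 2 at 62 h, the array that stands apart, gave second long-day differences of -2.68 for ALB, -0.85 for TTR, -0.91 for LBFABP, -1.65 for AvBD9 and -0.81 for LOC427439.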

How the data were processed

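The authors deposited 1 signal intensity per probe set and array on a linear scale, made with GCOS 1.2 per the submitters' processing notes. The scaling target and any detection calls were not stated in the labels or notes. From these values, 96 control probe sets were left out and each array was multiplied by 1 factor (0.7957 to 1.289) to a common 2% trimmed mean of 32.42. Signals under 3.509, the 25th percentile of an array (median of the 42), were raised to it, and log2 was taken. Of 38439 probe sets, 32057 passed the filter, and gene names are the platform annotation's (27168 probe sets with 1 symbol, 177 with several, 11094 with none). One mean per time was fitted with limma 3.58.1 in R 4.3.3 (variance trend, 21 residual degrees of freedom), p-values were adjusted by Benjamini-Hochberg over all 32057 probe sets, and the procedure was tested on simulated data.

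The genes and the gene lists were chosen with earlier results of these data known, so the long-against-short differences of the 5 genes carry no p-value. Named besides them are the 4 genes most correlated with each over all arrays and, of each list, up to 3 by smallest p in the first long-day comparison. Genes outside this rule that a small count, a single array or a large part of a sum singled out are TF, ENPP2, IGFBP2, DCN, RDH10 and genes at the floor. In the text on the 22 h arrays they are APOA1, APOA4, CP, FGB, GC, ARG2, A2M, FABP1, RBP4A and AKR1D1. Of the erythrocyte list HBA1, HBAD, SLC4A1, EPB42, HBZ and SPTB are named there too. All comparisons with the short day share its arrays. The labels call the replicates biological, and their number, 2 pools per time, limits the precision. Alternatives were other scalings, floors, filters, a pseudocount, no variance trend, a replicate block and each array left out in turn.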

Additional observations from a re-analysis of the deposited data

Results flagged for a closer look

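With signals raised to the floor, LBFABP had 3 values past Dixon's 95% limit for the gap to the other arrays of their group, out of 32 groups of 4 to 10 arrays checked, of which chance flags about 1 in 20. Replicate 2 at 38 h read 4.8, where the other 7 arrays of the first long day at hours 10 to 22 were at 0.304 to 1.89. Replicate 2 at 26 h read 6.97, where the other 3 arrays of the first long day at hours 2 and 6 were at 0.281 to 1.35. Replicate 2 at 6 h read 6.76, where the other 3 arrays of the short day at hours 2 and 6 were at 0.4 to 3.59. In these groups all other arrays but one, at 3.59, were under the floor of 3.509 and were set to it. For 38 h and 26 h any value above the floor would have been flagged, so these flags are no sign that the arrays stand apart.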

How the results depend on the processing

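All 5 genes were below 0 on the first and on the second long day in each of the 54 alternatives run. Of 2304 recomputed values 2258 kept their call, moved by less than the array spread or, for counts, stayed within a set ratio. A short-day count of 6 against 9 was thus held as the same. Part of this was fixed in advance. The filters, the variance trend, the replicate block and leaving out an array of a time outside a comparison cannot move its differences. The genes were also chosen for being lower on long days, so these counts do not measure how firm the differences are. Adding 16 in place of the floor gave -2.02 for ALB, -1.28 for TTR, -0.9 for LBFABP and -1.11 for AvBD9 on the first long day, -1.69 for ALB and -0.84 for AvBD9 on the second, and -1.21 for ALB at hours 2 and 6. LBFABP on the first long day was -3.02 with the floor at the 10th percentile and -3.46 with none, where second minus first was 1.33. With the values as deposited LOC427439 was at -1.1 on the second long day, -0.99 at hours 2 and 6 and -0.47 for second minus first, while the median of all probe sets was -0.185, -0.153 and -0.156.

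Among the within-day tests the short-day count was 17 without the filter and 5 without hour 22 (chosen after seeing the data), against 9, and the first long-day count 30 without the filter, against 15. The second long-day count of 16 was 3 with the pseudocount, 31 with the lower floor, 37 with none, 10 as deposited, 115 without the filter and 33 without the variance trend. With each array left out it ran from 10 to 546, the highest without replicate 1 at 62 h, which leaves that time to the array that stands apart. The short-day count then ran from 6 to 18 and the first long-day count from 11 to 22. ALB passed the short-day test with the pseudocount (3.53e-05) and without 36 h replicate 2 (0.0417), 54 h replicate 1 (0.0481) or 54 h replicate 2 (0.0445), and its adjusted p was 0.703 without 22 h replicate 1. With the pseudocount 2 of the 10 pairs of genes passed, the smallest adjusted p being 0.03 against 0.47. The second long-day calls over all probe sets numbered 438, against 919 with median centring, 3510 as deposited, 149 without the variance trend, 150 with array brightness as a covariate and 254 without hour 22. First long-day calls were 18, against 8 without hour 22.

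Replicate numbers did not pair the arrays: over 210 pairs of times the correlation of same-numbered deviations had a median of 0.0017 and none was over 0.1. The replicate block cannot move the differences (ALB -3.06 and -2.65), since every time holds both replicate numbers. It gave within-day counts of 10, 15 and 19. Dim probe sets limit LBFABP most, since most of its long-day arrays are at the floor.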
